A study of Rattus norvegicus with 36 samples.

Results

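The potassium channel subunit genes were described in the hippocampus of female rats, by their levels and by their co-variation across 36 RNA sequencing libraries. Members were the rows of the deposited table whose rat symbol began with Kcn, followed by a subfamily letter code and a number, with a mean value of at least 10 over the libraries. The table held 90 such symbols among 20603 genes. The choroid plexus gene Kcnj13 was left out by the rule, and 84 of the other symbols passed the minimum, in 19 of 20 subfamilies. The same minimum was passed by 15893 genes of the table.

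The tissue was frozen hippocampus from intact or ovariectomized females, with 6 animals in each of 6 groups. The labels name the groups Reg6m, Reg9m, Irreg9m, Acyc9m, RegOVX10m and Acyc16m. These were regularly cycling females at 6 and at 9 months, irregularly cycling and acyclic females at 9 months, females whose ovaries were removed at 9 months and that were sampled at 10 months, and acyclic females at 16 months. The columns of the table carry the tissue name and a running number and could not be matched to the groups. All 36 libraries were therefore treated as 1 ungrouped set, no group was compared with another, and libraries are named by their number in the table. A correlation over these libraries includes any difference between the groups, in cell composition and in handling.

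Potassium channels set the resting potential of neurons and glia, end action potentials and limit repetitive firing. Voltage-gated pore subunits assemble as tetramers, mostly within a subfamily. Electrically silent subunits only join the pores of another subfamily, and cytoplasmic or membrane-spanning partners adjust gating and surface expression. In the hippocampus these channels are distributed unevenly over axons, dendrites and cell types.

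Values are the authors' normalized values. They are not scaled to transcript length, so levels of different genes were not ranked against each other. Column totals ran from 34455978 to 35985904. Markers of the main excitatory fields were present in every library, with Prox1 of granule cells at 3301 to 5722, Wfs1 of CA1 pyramidal cells at 6799 to 18360.5 and Cpne4 of CA3 at 7630 to 11771. Library 17 stood apart. Its value of the myelin gene Mbp was 200540, against 123114 in the next library and a median of 95531, and the sum of its 7 interneuron markers was 11003 against a median of 19596. It held the lowest or the highest value of 33.3% of the members and of 23.05% of all genes, and results are given with and without it where it bears on them. Libraries 2, 16 and 34 also lay at the edge of sets of members described here. Library 10 held the lowest or the highest value of 17.9% of the members and of 10.1% of all genes. Where libraries 2, 16, 17 and 34 were left out together, library 10 was kept.

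The pore subunits of the voltage-gated Kcna to Kcnd subfamilies, which carry delayed-rectifier and A-type currents, were measured in 15 genes. Kcna2, an axonal pore subunit, had a median of 8509, a lowest value of 7399 and a highest of 9190. It stayed within narrow bounds in all libraries. Kcnd3, a pore subunit of A-type current, ran from 2554 in library 17 to 3934 in library 2, with a median of 3295. The related Kcnd2 and the glial rectifier Kcnj10 were not analysed here. Kcna7 was widely spread, at 4.90 to 31.4 with a median of 19.6.

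Cytoplasmic partners of the voltage-gated pores are encoded by the Kcnab and Kcnip subfamilies. Kcnab2, a beta subunit of Kcna channels, had values of 12675 to 17003 and a median of 14682. Kcnab1, from the same subfamily, lay between 5195 and 6425 with a median of 5885. Kcnip2, a calcium-binding partner of Kcnd channels, lay between 6646 and 9511 with a median of 8265. The 4 members of the Kcne subfamily of small membrane-spanning partners had medians from 16.2 for Kcne4 to 93.8 for Kcne2.

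Silent subunits, which have no current of their own and modify other pores, make up the Kcnf, Kcng, Kcns and Kcnv subfamilies. Kcnf1 ran from 327 to 1064 around a median of 636, a wide range against its median. Kcng1 had a median of 2425 and a range of 1604 to 3182. Kcns2 had a median of 487 and Kcnv1 of 1291. The medians of Kcnv2 and Kcng3 were 21.7 and 55.1.

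Among channels that restrain firing after its onset, the M-current subunits Kcnq5 and Kcnq3 had medians of 6679 and 1543. Kcnh3, a voltage-gated channel of the ether-a-go-go group, had a median of 3601. Kcnma1, the large-conductance calcium-activated pore, had a median of 2411, and Kcnmb4, its neuronal beta subunit, 1334. Kcnn2, a small-conductance calcium-activated channel, was steady at 1378 to 1655. The sodium-activated Kcnt2 and Kcnt1 had medians of 2212 and 1685.

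Inward rectifiers and leak channels completed the family with 12 Kcnj and 13 Kcnk genes. The G protein-gated subunits Kcnj9, Kcnj3 and Kcnj6 had medians of 2702, 2043 and 1638. The leak channel Kcnk1 had a median of 1768. Several others were close to the minimum: Kcnj15 (mean 11.6), the intermediate-conductance channel Kcnn4 (mean 12.4) and Kcne4 (mean 16.8) lay just inside it, while Kcnmb1 (4.20), Kcnk7 (3.40) and Kcnu1 (1.56) lay just outside. Kcnj1 (0.404) and Kcna10 (0.142) were the remaining genes below it, with 25 and 31 libraries at 0.

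**Figure D1:**
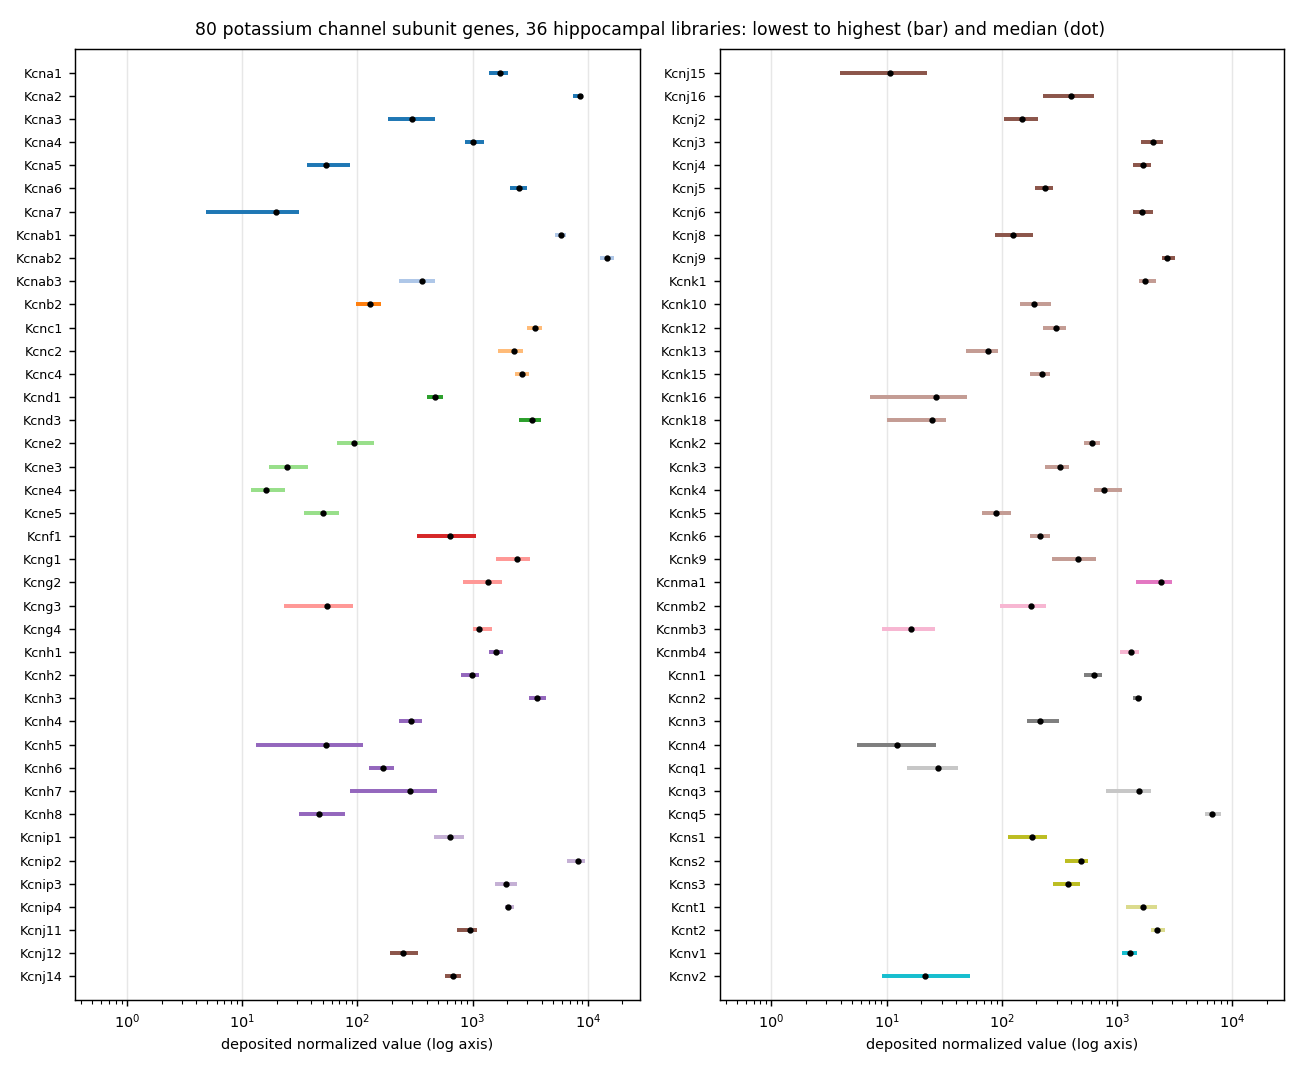
Lowest, median and highest deposited value of 80 of the 84 members over 36 libraries, on a log axis; bars span the range, dots mark the median, and colours mark subfamilies. The long bars of Kcnh5, Kcnk16 and Kcna7 belong to genes with medians under 100, and that of Kcnh7 to a gene with a median of 289.

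Spread between libraries differed widely among members. The ratio of the highest to the lowest value, each with 1 added, was at least 2 in 27 of 84 members (32.1%), and in 20.8% of all genes tested. Low genes made up much of the count, which held 15 of the 19 members with a mean under 100, against 80.1% of all genes in that range. Among members with a mean of at least 100, 12 of 65 (18.5%) reached the ratio, against 6.87% of all such genes. The interquartile range on the log2 scale pointed the same way, with a median of 0.16 over these members and 0.13 over all such genes.

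The 12 higher-level members with a ratio of at least 2 were the Kcna channel genes Kcna3 (2.54) and Kcnab3 (2.07), the silent subunits Kcnf1 (3.25), Kcng2 (2.18) and Kcns1 (2.14), the M-current and ether-a-go-go genes Kcnq3 (2.43) and Kcnh7 (5.65), the calcium-activated channel genes Kcnma1 (2.04) and Kcnmb2 (2.48), the inward rectifiers Kcnj16 (2.76) and Kcnj8 (2.10), and the acid-sensitive leak channel Kcnk9 (2.42). Kcnj16 is mainly a glial subunit and Kcnj8 a subunit of the vascular ATP-sensitive channel. Without library 17, 8 of the 65 higher-level members (12.3%) reached the ratio, against 5.31% of all such genes. Kcnab3, Kcng2, Kcnmb2 and Kcnj8 were the 4 that no longer did, with 23 members at the ratio over all levels. The 8 members with the widest interquartile range were Kcnk16 (0.67), Kcnj15 (0.65), Kcnn4 (0.58), Kcnh5 (0.58), Kcna7 (0.56), Kcnh7 (0.54), Kcng3 (0.53) and Kcnv2 (0.51). Of these, Kcnh7 alone had a median above 100. Narrow ranges were those of Kcnab1 (0.07), Kcnip4 (0.08), Kcnn2 (0.09) and Kcna2 (0.09).

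Co-variation was measured as Pearson r on log2(value + 1) over the 36 libraries. Of 3486 member pairs, 27 (0.775%) had an r of at least 0.7, against a background of 0.325% of all 126285778 gene pairs. An r of -0.7 or less was found for 1 pair (0.0287%), against 0.0856% of all gene pairs. The median r over all member pairs was 0.02. Pooled over all subfamilies, pairs within a subfamily had no higher r than the others. The median was -0.00073 over the 246 pairs within a subfamily, of which 78 were Kcnk and 66 Kcnj pairs, and 0.03 over the others. Of the 27 high pairs 1, Kcnh5 with Kcnh7, lay within a subfamily. Pairs just under the threshold included Kcnd3 with Kcng3 (0.6997) and Kcna3 with Kcnc2 (0.697).

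**Figure D2:**
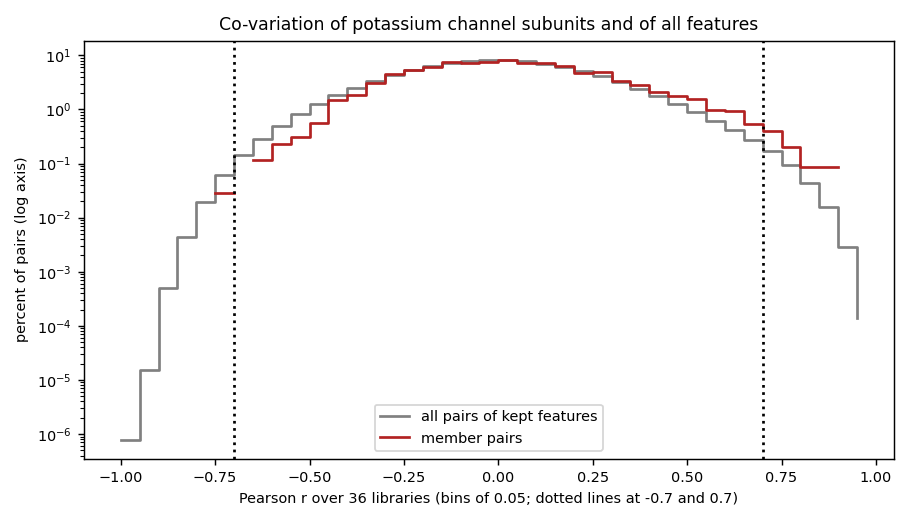
Distribution of Pearson r over 36 libraries, in bins of 0.05, for the 3486 member pairs (red) and all pairs of 15893 genes (grey), with the percent of pairs on a log axis. To the right of the dotted line at 0.7 the member curve lies above the grey one up to 0.9 (0.775% against 0.325% of pairs), and to the left of -0.7 it holds 1 pair.

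The 27 pairs joined 22 genes into 5 separate sets. The largest held 9 genes of 8 subfamilies: the voltage-gated pores Kcna3, Kcnc2 and Kcnd3, the silent subunits Kcnf1, Kcng1 and Kcng3, the leak channel Kcnk9, the beta subunit Kcnmb2 of large-conductance channels and the small-conductance calcium-activated channel Kcnn3. Of its 36 pairs 16 passed the threshold and the median r was 0.69. Sets were built from pairs with a high r in these same libraries, so a high median r within a set follows from that choice. The highest r of the family was that of Kcnc2, a subunit of fast-spiking interneurons, with Kcnd3, at 0.86 (Spearman rho 0.85). It was 0.82 without library 17 and 0.79 without the 2 libraries farthest from the median. Kcna3 with Kcnk9 followed at 0.86 (rho 0.81), then Kcnd3 with Kcnk9 at 0.84 (rho 0.78) and Kcnd3 with Kcnf1 at 0.80 (rho 0.74).

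Kcnc2, Kcnd3, Kcna3, Kcnk9 and Kcnf1 each had 1 of their 2 lowest values in library 17 and 1 of their 2 highest in library 2. Kcnc2 ran from 1650 in library 17 to 2738 in library 2, with a median of 2311. Kcna3 ran from 185 in library 17 to 470 in library 16, with a median of 299, and its value in library 2 was 418. Kcnk9 ran from 270 in library 17 to 655 in library 2, with a median of 459. Kcnf1 had its lowest value in library 11 and its next lowest, 359, in library 17. The median r of the 9 genes was 0.61 without library 17 and 0.53 without libraries 2, 16, 17 and 34. It was 0.20 once the first principal component of all genes had been removed.

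The promoters of genes from the most tightly linked pairs are shown because genes that move together can be compared at their starts. Each is the 250 bases before the gene's start, 5′ to 3′ on the gene's strand, from RefSeq on the rat build GRCr8, with each GGGCGG box in capitals on either strand (CCGCCC on the other). The windows are chr7:49587364-49587613 for Kcnc2 (plus strand, the first of its 2 listed starts), chr2:195626066-195626315 for Kcnd3 (plus strand), chr2:197320074-197320323 for Kcna3 (plus strand) and chr3:68230672-68230921 for Kcnh7 (minus strand), a gene of the next set.
Kcnc2: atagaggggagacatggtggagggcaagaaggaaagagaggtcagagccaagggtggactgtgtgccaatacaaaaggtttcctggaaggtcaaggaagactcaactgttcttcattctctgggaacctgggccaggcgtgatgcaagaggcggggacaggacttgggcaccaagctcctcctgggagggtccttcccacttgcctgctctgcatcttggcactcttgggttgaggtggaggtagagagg
Kcnd3: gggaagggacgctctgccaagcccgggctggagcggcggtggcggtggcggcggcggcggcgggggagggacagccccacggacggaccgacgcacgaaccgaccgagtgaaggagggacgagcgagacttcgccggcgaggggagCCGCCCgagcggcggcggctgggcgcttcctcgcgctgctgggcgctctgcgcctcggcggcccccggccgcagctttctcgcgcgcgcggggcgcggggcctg
Kcna3: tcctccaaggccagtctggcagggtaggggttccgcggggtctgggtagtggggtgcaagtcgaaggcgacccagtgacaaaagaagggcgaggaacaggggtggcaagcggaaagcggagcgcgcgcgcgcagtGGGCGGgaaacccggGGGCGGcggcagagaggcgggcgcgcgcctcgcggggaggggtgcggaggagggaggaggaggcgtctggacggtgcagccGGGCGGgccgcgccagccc
Kcnh7: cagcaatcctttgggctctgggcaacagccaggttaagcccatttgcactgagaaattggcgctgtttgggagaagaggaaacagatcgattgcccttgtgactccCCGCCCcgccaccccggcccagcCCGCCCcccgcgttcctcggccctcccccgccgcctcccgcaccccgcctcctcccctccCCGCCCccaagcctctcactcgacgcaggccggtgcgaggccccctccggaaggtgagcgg

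These windows differed in make-up. Kcnk9 and Kcnq3, the members closest to Kcna3 and Kcnh7, had no promoter entry and could not be shown beside them. That of Kcnc2 held 0 boxes and 2 CG dinucleotides, while that of Kcnd3, its closest gene, held 1 box and 43 CG dinucleotides. Kcna3 had 3 boxes and 29 CG dinucleotides, and Kcnh7 had 3 boxes and 20. Over the family, 55 members matched a promoter by symbol and 29 of these (52.7%) held the box on either strand, against 32.4% of all 27457 promoters. The median number of CG dinucleotides was 12 in members and 6 in all. The letters TATAAA and TGACGTCA, searched on both strands, were in 0 of the 55 windows, against 13.1% and 1.7% of all promoters. The 27457 promoters were not limited to genes with a mean of at least 10, as the members were. A comparison limited to such genes was not made. A match describes these letters and is no evidence of binding.

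The next set held Kcnq3, a subunit of the M-current, the ether-a-go-go channels Kcnh5 and Kcnh7, and Kcnma1. Of its 6 pairs 5 passed, with a median r of 0.76. Kcnq3 with Kcnh7 had an r of 0.86 (rho 0.77) and Kcnq3 with Kcnma1 0.84 (rho 0.78). This set did not follow library 17: the highest value of Kcnh5, 112, was in that library. On the log2 scale, the mean difference of the 4 genes from their medians was lowest in library 34 (-1.33), then in library 13 (-0.91). It was also low in libraries 7 (-0.61), 8 (-0.50) and 1 (-0.42). Kcnh5 was 13.1 in library 34 and 21.8 in library 13, against a median of 53.2 and a highest value of 112. Kcnh7 was 87.0 and 94.1 in these libraries, against a median of 289 and a highest value of 496. Kcnma1 was 1462 and 1829, against a median of 2411 and a highest value of 2979. Kcnq3 was 807 in library 34, 1098 in library 8 and 1169 in library 13, with a median of 1543 and a highest value of 1965. All 4 genes were lowest in library 34. Without libraries 13 and 34 the median r was 0.56, and with the first component of all genes removed it was 0.81, against 0.20 for the 9-gene set.

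The other sets held 3 genes each. In 1 of them Kcna1, an axonal pore subunit, Kcns2 and Kcnj6 had a median r of 0.70, with and without library 17, and Kcnj6 with Kcns2 reached 0.74 (rho 0.71). Kcnj6 was lowest in library 7 and highest in library 21. The silent subunit Kcng2 and Kcnip2, members of another set, had an r of 0.79 (rho 0.76), which was 0.71 without library 17. Kcng2 ran from 826 in library 17 to 1802 in library 10, with a median of 1372, and Kcnip2 was also lowest in library 17.

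**Figure D3:**
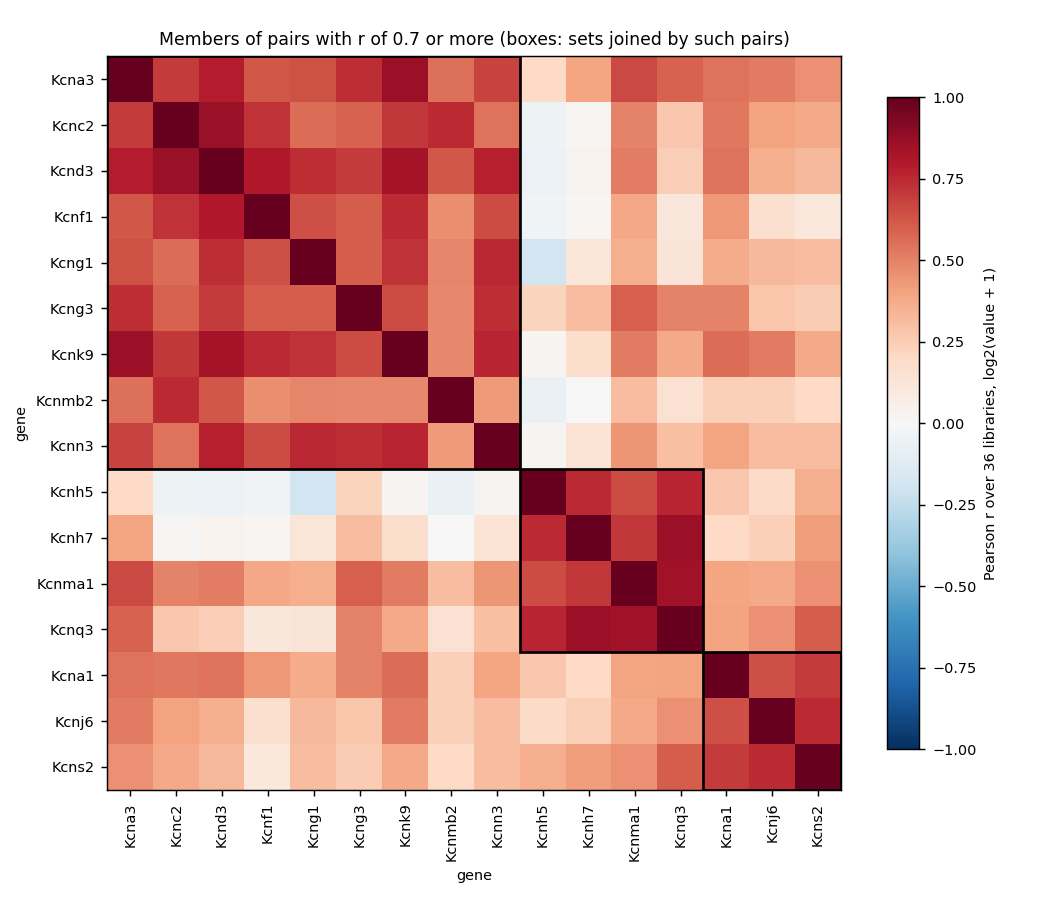
Pearson r over 36 libraries between the 16 members of the 3 sets described, from blue (-1) to red (1); black boxes enclose the sets. Kcnh5, Kcnh7, Kcnma1 and Kcnq3 form a dark block with a median r of 0.76. Sets were built from pairs with an r of at least 0.7 in these libraries, so dark boxes follow from that choice.

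**Figure D4:**
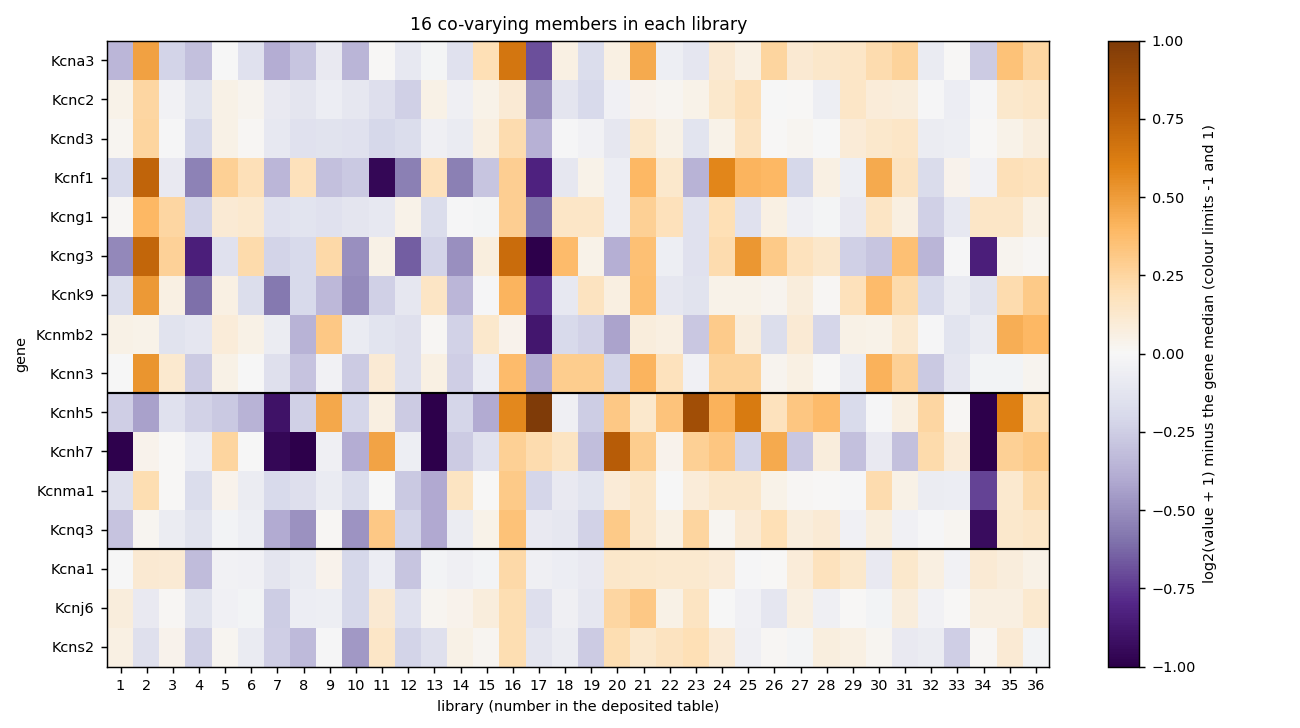
log2(value + 1) of the same 16 members in each of 36 libraries, as the difference from the gene's own median, with colours limited to -1 and 1 and black lines between the sets. Library 17 is purple through the 9-gene set at the top. Library 34 is dark purple for Kcnh5, Kcnh7, Kcnma1 and Kcnq3. Kcnh5 and Kcnh7 reach the colour limit of -1 there and also in library 13, and Kcnh7 in library 8.

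The opposite relation was rare. Kcnip2 and Kcnt1 had an r of -0.74 (rho -0.58), which was -0.68 without library 17. Kcnt1 had its highest value, 2219, in library 17 and its lowest, 1204, in library 3, where Kcnip2 was highest. The next lowest pairs were Kcnj5, a G protein-gated inward rectifier subunit, with Kcnmb4 (-0.65), Kcnab3 with Kcnt2 (-0.62), Kcng2 with Kcnt1 (-0.62) and Kcnd3 with the silent subunit Kcng4 (-0.61). They were followed by Kcna2 with Kcnip2 (-0.59), Kcng2 with the mechanosensitive leak channel Kcnk4 (-0.58), Kcne2 with Kcnn1 (-0.58) and Kcnj11 with Kcnj16 (-0.57). Kcng2 with Kcnk4 was -0.32 without library 17.

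Subunits whose proteins assemble, or that are known to be expressed together, were examined as a list of 40 pairs, of which 30 could be measured. Their median r was 0.29. An r of at least 0.7 was reached by 1 pair, Kcnd3 with Dpp10, a membrane-spanning partner of A-type channels, at 0.72 (rho 0.69). In all 8 pairs reached 0.5, against 2.51% of all gene pairs. They included Kcna1 with Adam22, a synaptic anchor of Kcna channels, at 0.69 (rho 0.65). The G protein-gated subunits Kcnj3 with Kcnj6 had 0.69 (rho 0.57), and Kcna1 with Kcna2 had 0.65 (rho 0.51). Kcnc1 with Kcnc2, the fast-spiking pair, had an r of 0.52, which was 0.38 without library 17.

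Other well-known partners had a lower r. The G protein-gated subunit Kcnj9 had an r of 0.20 with Kcnj3 and of -0.04 with Kcnj6. Kcnj8 with Abcc9, its vascular sulphonylurea receptor, had an r of 0.42, and Kcnj11 with Abcc8, the neuronal form, 0.31. The pore Kcnma1 with its beta subunit Kcnmb4 had an r of -0.28, Kcna2 with Kcnab2 -0.34 and the leak channels Kcnk3 with Kcnk9 -0.22. In all 10 of the 30 pairs had an r below 0, against 50.6% of all gene pairs. Kcnc2 with Pvalb, the calcium-binding protein of fast-spiking interneurons, had an r of -0.03.

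Members that are neighbours on the chromosome in the RefSeq GRCr8 annotation gave r values from -0.17 to 0.45 over 6 pairs. Kcna3 with Kcna2 had the highest of these (0.45), followed by Kcna5 with Kcna1 (0.41) and Kcnj6 with Kcnj15 (0.28). The others were Kcnk16 with Kcnk5 (0.04), Kcna1 with Kcna6 (0.03) and Kcnj16 with Kcnj2 (-0.17).

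Across all members, the first principal component of the scaled genes carried 18.2% of the variance and the next 11.99%. Its library scores had an r of 0.87 with those of the first component of all genes taken without scaling, which carried 8.32% of their variance. With all genes scaled as the members were, their first component carried 15.6%. The members with the largest positive loadings were Kcnk9 (0.22), Kcna3 (0.22), Kcnd3 (0.22), Kcnc2 (0.20) and Kcnj3 (0.20). Large negative loadings were those of Kcng4 (-0.16), Kcnh6 (-0.12), Kcnk15 (-0.09) and Kcnk16 (-0.09). Outside the family, the genes closest to this component were Lonrf2 (r of 0.94), Ncoa7 (0.91), Zfp831 (0.91), Tecpr2 (0.91) and Glg1 (0.91). Genes close to 3 single members were looked up after the sets had been seen: Cadm1 was the closest to Kcnd3 (0.92), the calcium channel gene Cacna1e to Kcnq3 (0.94) and Tesc to Kcnip2 (0.84).

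Marker lists of the cell types and regions that a hippocampal dissection can hold were set beside the members, as the mean of each list's centred and scaled genes. The median r among the genes of a list was 0.89 for oligodendrocytes, 0.70 for interneurons and 0.23 for CA2. It was 0.10 for thalamus, 0.08 for oligodendrocyte precursors, 0.06 for ependyma and -0.14 for striatum. Genes of these last lists hardly moved together, so their scores cannot be read as the amount of the named tissue. In bulk tissue fewer cells of a type and less RNA per cell cannot be told apart. Of the 84 members 45 (53.6%) had an r of at least 0.5 in size with 1 or more of 19 lists, against 43.2% of all genes. Without library 17 these shares were 50% and 40.2%. The interneuron list of 7 measured genes reached 0.5 with 10 members (11.9%), against 5.8% of all genes, and -0.5 with 0 members, against 4.33%. The highest were Kcns3 (0.79) and Kcnc2 (0.79), which were 0.76 and 0.66 without library 17. Without that library 5 members reached 0.5 (5.95%), against 2.1% of all genes.

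The oligodendrocyte list of 7 genes reached -0.5 with 12 members (14.3%), against 4.01% of all genes, and 0.5 with 4 members, against 4.06%. Its summed level ran from 127031 in library 16 to 348327 in library 17, with a median of 180571. Of the 12 members 7 belonged to the 9-gene set, namely Kcng1 (-0.78), Kcnd3 (-0.68), Kcnn3 (-0.68), Kcnk9 (-0.67), Kcna3 (-0.66), Kcnc2 (-0.58) and Kcng3 (-0.57). The 4 members that went with the list included Kcna6 (0.65), Kcnab3 (0.65) and Kcnk16 (0.56). Without library 17 the list reached -0.5 with 7 members (8.33%), against 2.92% of all genes. Of the 9-gene set, Kcng1 (-0.66), Kcnn3 (-0.66), Kcnd3 (-0.57), Kcnk9 (-0.57) and Kcna3 (-0.55) were then still among them. Kcnc2 (-0.33) and Kcng3 (-0.41) no longer were. Without libraries 2, 16, 17 and 34 the list reached -0.5 with 3 members (3.57%), against 0.875%.

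The mean of the 9-gene set had an r of -0.73 with the oligodendrocyte list and of 0.64 with the interneuron list. The r was -0.60 with the ependyma list of 3 measured genes (median r within the list 0.06) and -0.52 with the mitochondrial transcripts. Without library 17 these were -0.59, 0.42, -0.55 and -0.33. The part of these lists in the co-variation of the set was not tested. By contrast, no list reached 0.5 in size with the mean of Kcnh5, Kcnh7, Kcnma1 and Kcnq3, where r ran from -0.35 to 0.29.

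Field markers also went with single members. The CA1 list of 5 genes reached 0.5 with 7 members (8.33%), against 4.87% of all genes, led by the ether-a-go-go channels Kcnh2 (0.77) and Kcnh3 (0.69) and by Kcnab1 (0.66). Without library 17 it reached 0.5 with 4 members (4.76%), against 3.25%. The CA2 list of 5 genes reached 0.5 with 4 members, among them Kcnip2 (0.71), Kcng2 (0.71) and Kcnmb4 (0.62), against 8.83% of all genes. It reached -0.5 with 4 members, Kcnt1 (-0.72), Kcnk4 (-0.61), Kcna1 (-0.53) and Kcna2 (-0.53), against 6.1% of all genes. Both CA2 counts are 4.76% of the members. Of the 4 members at -0.5, Kcnk4 was -0.43 without library 17, Kcnt1 -0.66, Kcna1 -0.67 and Kcna2 -0.57. Without library 17 the CA2 list reached 0.5 with 3 members (3.57%), against 8.83% of all genes, and -0.5 with 8 members (9.52%), against 7.78%, so that the lower share moved from below to above the background. The list of general neuronal genes reached 0.5 with 9 members (10.7%), against 6.46%, and the mitochondrial transcripts reached -0.5 with 13 members (15.5%), against 5.12%. Without library 17 the counts were 6 members (7.14%) for the neuronal list, against 3.77% of all genes, and 5 (5.95%) for mitochondrial transcripts, against 2.45%. Without libraries 2, 16, 17 and 34 the neuronal count was 4 (4.76%), against 2.42%.

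The other lists were read in the same way. The granule cell list reached 0.5 with Kcnc4 alone (0.59), against 1.04% of all genes, and -0.5 with Kcna6 alone (-0.65), against 0.503%. The CA1 list reached -0.5 with 0 members, against 1.38%. The CA3 list reached 0.5 with Kcnq5 (0.57) and Kcnd1 (0.51), against 1.35%, and -0.5 with Kcne4 (-0.54), against 0.837%. Without library 17 it reached -0.5 with 4 members (4.76%), against 1.06%. The general neuronal list reached -0.5 with Kcne2 (-0.53), against 2.76%, and mitochondrial transcripts reached 0.5 with Kcng4 (0.58), against 3.95%. Of the glial lists, astrocytes reached 0.5 with 0 members, against 2.99%, and -0.5 with 3, Kcnc1 (-0.61), Kcns3 (-0.57) and Kcnc2 (-0.52), against 2.33%. Without library 17 the latter count was 1, against 0.893%. Oligodendrocyte precursors reached 0.5 with 0 members, against 0.51%, and -0.5 with Kcnh1 (-0.50), against 0.126%, or with 2 members without library 17, against 0.151%. The microglia list reached 0.5 with 0 members, against 0.491%, and -0.5 with 0, against 0.0881%.

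Of the vascular and lining tissues, the endothelium list reached 0.5 with 0 members, against 3.44% of all genes, and -0.5 with 5 members led by Kcns3 (-0.64), against 3.88%. With library 17 left out, the count at -0.5 was 1 member (1.19%), against 0.529%. Pericytes and smooth muscle reached 0.5 with Kcnt1 (0.57) and Kcnk4 (0.55), against 4.34%, and -0.5 with 3 members led by Kcnmb4 (-0.61), against 7.12%. Without library 17 each of these counts was 1 member, against 3.46% and 5.19%. Kcnt1 was then 0.48 and Kcnk4 0.35. The ependyma list reached 0.5 with Kcnk16 (0.65) and Kcng4 (0.64), against 1.85%, and -0.5 with 10 members led by Kcnn3 (-0.64), against 2.48%. The 10 members are 11.9% of the family. With library 17 left out, the count at -0.5 was 5 members (5.95%), against 2.15%, and without libraries 2, 16, 17 and 34 it was 3 (3.57%), against 0.975%. The choroid plexus list reached 0.5 with 0 members, against 1.23%, and -0.5 with 4 members led by Kcnh1 (-0.58), against 0.843%. The meninges list reached 0.5 with Kcne5 (0.50), against 0.396%, or with 0 members without library 17, and -0.5 with 0, against 0.308%. Of tissues next to the hippocampus, the thalamus list reached 0.5 with Kcnt1 (0.59), against 2.32%, and -0.5 with 4 members, among them Kcng2 (-0.61), against 1.94%. With library 17 left out, the count at -0.5 was 0 members, against 0.113%, and Kcnt1 was 0.45. The striatum list reached 0.5 with 4 members led by Kcnj4 (0.63), against 0.761%, and -0.5 with 0, against 0.176%. With library 17 left out, the count at 0.5 was 2 members (2.38%), against 0.749%. Early response genes reached 0.5 with 0 members, against 0.591%, and -0.5 with 0, against 0.283%.

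**Figure D5:**
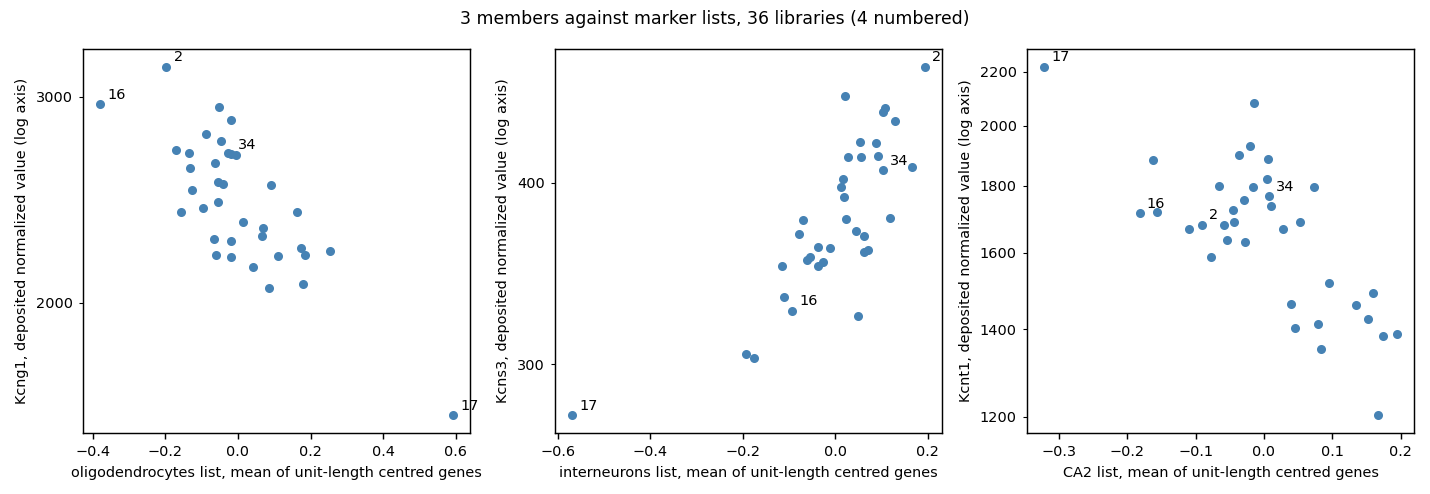
Deposited value (log axis) of Kcng1 against the oligodendrocyte list, Kcns3 against the interneuron list and Kcnt1 against the CA2 list, with list scores as the mean of centred genes scaled to unit length; each point is 1 of 36 libraries. Library 17 lies at the edge of each plot, and r is -0.78, 0.79 and -0.72 with it and -0.66, 0.76 and -0.66 without it.

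Kcne2, a partner subunit abundant in choroid plexus, was checked against Ttr, the main transcript of that tissue. Ttr ran from 4.59 to 1699, with a median of 40.4 and the highest value in library 8. Kcne2 ran from 66.6 to 139 and was 117 in library 8, with an r of 0.38 to Ttr. The excluded gene Kcnj13 ran from 0.977 to 25.5 and was highest in library 8.

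Genes outside the symbol pattern whose proteins accompany these channels were read from a list of 21, of which 19 passed the minimum. A ratio of at least 2 was reached by 4 of these 19, against 20.8% of all genes. An r of at least 0.7 with a member was reached by 11 of them, against 13.5% of all genes outside the family. The hyperpolarization-activated channel Hcn3 went with Kcnf1 (0.85), the scaffold Dlg4 with Kcnh3 (0.84) and Adam22 with Kcns2 (0.77).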

How the data were processed

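RNA from frozen hippocampus of 36 female rats was sequenced. The authors deposited 1 table of normalized values, treated here as signal: they are not whole numbers and column totals are nearly equal, so the original depth is unknown. kallisto 0.43 and DESeq2 are named in the submitters' processing notes without a step, and no reference is given in the sources used here. Column names could not be tied to groups, so no group was compared, no p-value was computed (the pooled libraries mix 6 groups), and only ranges, medians and correlations are given. The members and lists were chosen with earlier results of these data known.

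Genes with a mean of at least 10 were kept. Values were analysed as log2(value + 1) in Python 3.11.15 (numpy 2.4.6, pandas 2.3.3, scipy 1.17.1, networkx 3.6.1) by Pearson r, Spearman rho and principal components, and the code was tested on simulated data. High pairs had an r of at least 0.7, and sets are genes linked by such pairs. Marker list genes that match the family pattern were left out of the lists. Named genes were those with the highest median of each subfamily, the widest and narrowest interquartile ranges, ratios of at least 2, the 10 highest and 10 lowest pairs, the assembly pairs and the largest loadings; others were chosen after their values were seen. Counts cover all members, but results that need 4 of them by name are not reported here. All 84 symbols matched a RefSeq gene. Alternatives were a pseudocount of 10, rank correlation, a mean of at least 50 or no minimum, rescaled columns and libraries left out in turn. Removal of the first component of all genes, which were centred and not scaled for it, was a further alternative.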

Additional observations from a re-analysis of the deposited data

How the results depend on the processing

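The number of member pairs with an r of at least 0.7, 27, was 11 with the first component of all genes removed and 13 without libraries 2, 16, 17 and 34, a set chosen after seeing the data. Leaving out 1 library at a time gave 21 (without library 17) to 32 (without library 23). Of the 27 pairs, 15 were still at 0.7 by Spearman rho, 13 without the 2 farthest libraries, 20 without library 17 and 8 with the first component removed. The single pair at -0.7 or less became 0 by Spearman rho and 2 with the first component removed, and 0 (without library 17) to 2 (without library 10) when libraries were left out in turn. Removing the first component turned the r of Kcnc2 with Kcnk9 from 0.71 to -0.029. The median r over member pairs, 0.02, was 0.041 at a mean of at least 50 and 0.016 with the first component removed, and 0.018 to 0.027 when libraries were left out in turn. The first component of the members, 18.2% of variance, carried 20.2% at a mean of at least 50, 17.3% with no minimum, 13.5% with the first component of all genes removed and 17.4% to 19.2% without single libraries. The 27 members with a ratio of at least 2 became 17 at a mean of at least 50, where fewer low genes were included. Their number was 32 with no minimum, 22 with a pseudocount of 10 and 18 without libraries 2, 16, 17 and 34. It was 23 to 27 without single libraries. The cause of the other changes was not tested. No paired analysis was possible because the columns carry no group and no replicate number of a group, and no result comes from a test. Without transcript lengths, levels cannot be compared between genes, and without counts, no interval can be given for low values.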
